A study of Mus musculus with 6 samples.

Results

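The 10 genes described here encode the MHC class I molecule and the machinery that fills it with peptide. They are the classical heavy chains H2-K1 and H2-D1, the light chain B2m, the class Ib heavy chains H2-Q4, H2-Q6, H2-Q7 and H2-T23, and the peptide loading genes Tap1, Tap2 and Tapbp. Members were selected by gene symbol from a table of 19086 genes, with the levels of these libraries already known, H2-Q7 among them, so every difference between the groups is given as a description of the libraries and supports no test. All 10 symbols matched 1 row each, and all 10 passed the filter on low values (a mean normalized count of at least 1 over the 6 libraries), as did 16436 genes in all.

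A class I molecule is a heavy chain bound to beta-2 microglobulin that carries a short peptide to the surface of nearly every nucleated cell. Peptides cut by the proteasome enter the endoplasmic reticulum through the TAP1-TAP2 transporter, and tapasin, calreticulin and the oxidoreductase ERp57 hold the empty molecule beside the transporter until a peptide is bound. H2-K and H2-D present to CD8 T cells, whereas class Ib chains have narrower roles. Class I transcription is raised by interferons and by NF-kB, and haematopoietic stem cells (HSCs) are known to carry class I at their surface.

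RNA was sequenced from HSCs sorted as CD150+ CD48- cells among Lin- Sca-1+ Kit+ marrow of C57BL/6 chimeric mice. Marrow of Zfp521-CKO donors, deficient in the zinc finger gene Zfp521, or of Zfp521fl/fl donors with the loxP-flanked gene had been given to lethally irradiated hosts of the CD45.1 type 2 months earlier, and donors were of the CD45.2 type. There were 3 libraries per genotype. No Cre driver, age, deleted exon or sort on CD45.2 is named in the labels. Separate recipients are not named either, so the spread between libraries may be technical.

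Values are log2(normalized count + 1), where the reads of a gene have been divided by 1 size factor for each library. They are not divided by gene length, so levels are compared between libraries and not between genes. Depth ran from 3117648 to 55798660 reads in the Zfp521-CKO-labelled libraries and from 7310348 to 10599336 in the controls, a 17.9-fold range in which replicate 1 labelled Zfp521-CKO was the deepest library and replicate 3 of that label the shallowest. Zfp521 itself had 1519, 126 and 0 reads in replicates 1, 2 and 3 labelled Zfp521-CKO, against 0, 3 and 0 in Zfp521fl/fl replicates 1, 2 and 3. The targeted gene therefore goes against the labels in these counts, although which exons the deletion removes is not stated, and every direction given refers to the label of a library. All 7 HSC markers had a higher mean in the Zfp521-CKO-labelled libraries, as did 73.6% of all genes past the filter. Of the 7, 1 (Procr) was higher without overlap, against 7.17% of all genes. In replicate 3 labelled Zfp521-CKO, Procr had 3 reads. As a share of reads the 7 took 0.083%, 0.0887% and 0.0242% in the Zfp521-CKO-labelled libraries, against 0.00241%, 0.134% and 0.00675% in the controls. The sorting marker Slamf1 (CD150) had reads in replicate 1 labelled Zfp521-CKO and in no other library, Procr had none in any control, and the other 5 had reads in at least 1 control. The 15 neutrophil markers took 0.0409%, 1.47% and 12.9% of reads in replicates 1, 2 and 3 labelled Zfp521-CKO, against 15.3%, 12.7% and 14.0% in the controls. Of the 15, 14 had a lower mean in the Zfp521-CKO-labelled libraries, while 73.6% of all genes past the filter had a higher one. Lower without overlap were 5 of the 15, among them Ms4a3, Elane, Fcnb and Prtn3, against 2.05% of all genes. In bulk RNA, fewer cells of a type and less RNA per cell cannot be told apart.

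The heavy chain genes other than H2-T23 share a short promoter stretch that carries the NF-kB site of the class I enhancer and, next to it, an interferon regulatory factor (IRF) site. It is shown here because it is nearly the same in these genes, whose levels differed from each other in these libraries. Whether the stretch has a part in their levels was not tested. Sequences are from RefSeq on build GRCm38.p6, while the submitters' processing notes name mm9 for the counts. They are given 5′ to 3′ on the gene's strand, and capitals mark the NF-kB motif (GGGG, any base, then TTCCC) and the IRF motif (GAANNGAAA, which lies on the opposite strand here). In H2-Q4 the NF-kB letters are not matched in full.
H2-K1, chr17:34000428-34000469, minus strand: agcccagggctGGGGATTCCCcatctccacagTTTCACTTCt
H2-D1, chr17:35262912-35262953, plus strand: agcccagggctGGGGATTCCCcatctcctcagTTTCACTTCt
H2-Q4, chr17:35379432-35379473, plus strand: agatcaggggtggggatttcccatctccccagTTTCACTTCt
H2-Q6, chr17:35424666-35424707, plus strand: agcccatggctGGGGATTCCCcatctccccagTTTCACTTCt
H2-Q7, chr17:35439010-35439051, plus strand: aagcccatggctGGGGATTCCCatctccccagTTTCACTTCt

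Of the 10 members, 9 had a promoter in the table (all but Tap2), each from 250 bases before to 50 bases after a start site. Both strands were searched, and the motif GAANNGAAA was shortened to this form after the promoters had been read. The NF-kB motif was in 4 of the 9 (H2-K1, H2-D1, H2-Q6 and H2-Q7), against 0.611% of 27025 genes with a promoter. Its letters are those of the class I enhancer, so matches in class I genes were to be found. Pairs of these 4 promoters are 82.4 to 97.7% identical over aligned bases, so the matches are not independent. The IRF motif was in 5 of the 9, the 5 genes shown, against 8.68% of all. CCAAT, the letters of the NF-Y box, was in 9 of 9, against 41.1%. TGACGT, the core of a CRE, was in H2-Q4 and H2-Q7, against 8.37%. Forms of a motif with another spacing were not searched. A match is a description of the letters, not of a factor's binding.

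No member reached an adjusted p under 0.05. In limma's fit over 16436 genes, 0 genes (0%) did, with Benjamini-Hochberg adjustment and a smallest adjusted p of 0.613, while 917 had an unadjusted p under 0.05 and voom on the recovered reads called 4. The group mean was higher in the Zfp521-CKO-labelled libraries for 9 of the 10 members, against 73.6% of all genes tested. Of the 7 members with reads in all 6 libraries, 6 had a higher mean, against 51% of the 3140 such genes. The median member differed by 2.87 log2 units, compared with 1.63 for all genes, 0.59 when genes without control reads are set to 3 reads in each control, and 0.03 for genes with reads everywhere. For the 7 members with reads in all 6 libraries the median was 2.89. Relative to the median of all genes, 7 of the 10 lay above it.

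**Figure D1:**
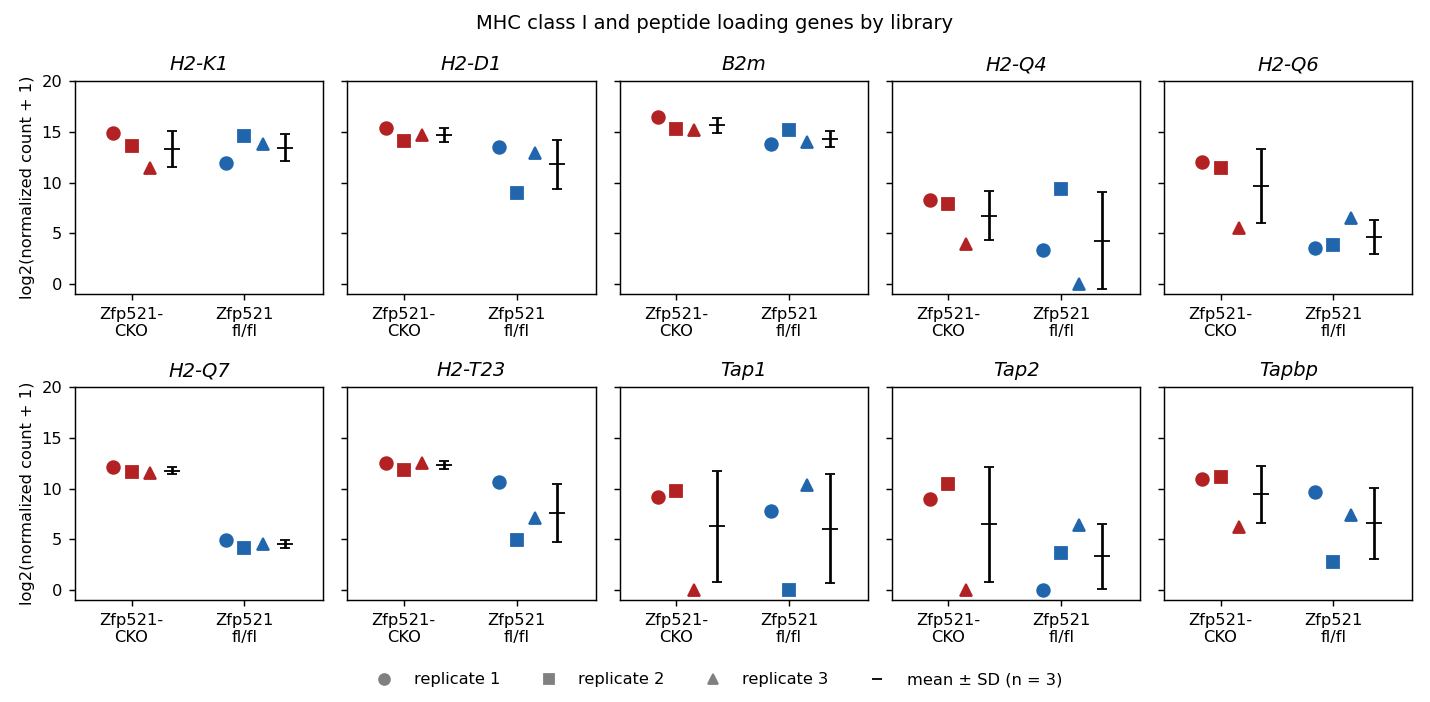
Deposited level, log2(normalized count + 1), of each of the 10 genes in every library (red, labelled Zfp521-CKO; blue, Zfp521fl/fl; symbol, replicate), with mean ± SD (n = 3) in black beside each group. H2-Q7 has tight groups far apart, at 11.55 to 12.16 (Zfp521-CKO) against 4.18 to 4.94 (Zfp521fl/fl), while H2-K1 and Tap1 cover the same range in both groups.

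Groups did not overlap for 3 of the 10 members, H2-D1, H2-Q7 and H2-T23, all higher in the Zfp521-CKO-labelled libraries. Such genes made up 7.17% of all genes tested (2.05% were lower without overlap), and 8.41% of genes with reads in all 6 libraries. The latter set holds 7 of the 10 members, these 3 among them. With reads of every library thinned to 3117648, the same 3 members had groups that did not overlap, against 7% of genes. Thinning does not change which molecules entered a library. It sets equal totals in place of the size factors, so scaling changes along with depth wherever thinned reads are used.

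**Figure D2:**
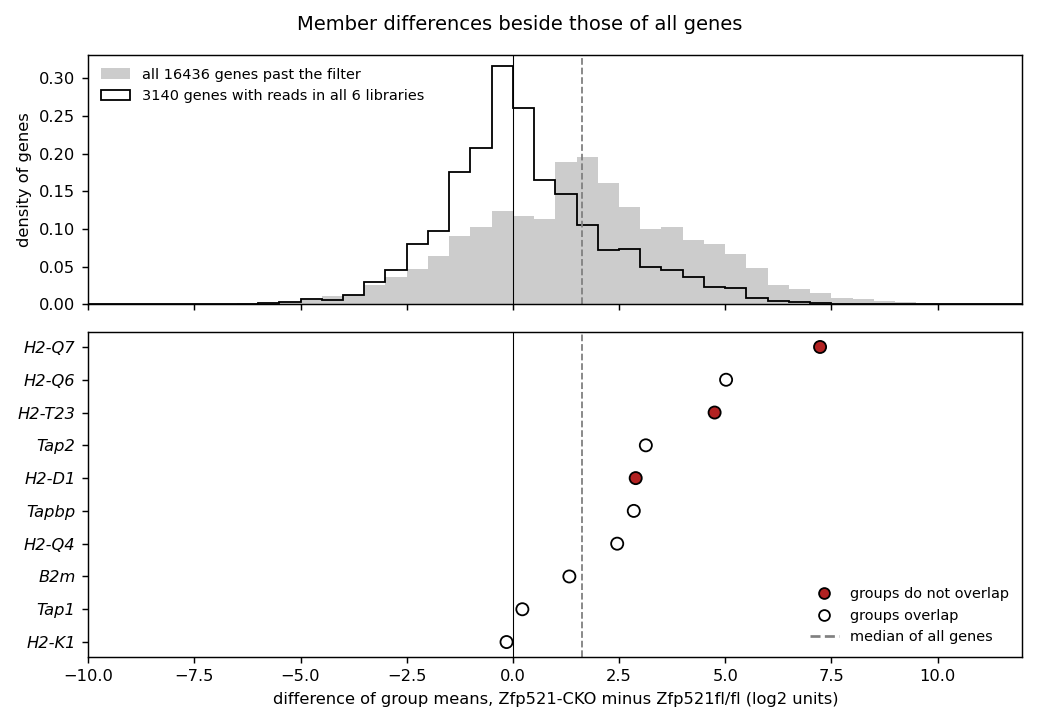
Top, density of the difference of group means (Zfp521-CKO minus Zfp521fl/fl, log2 units) over 16436 genes (grey) and over the 3140 with reads in all 6 libraries (line). Bottom, the same difference for each member, filled where the groups do not overlap, with the median of all genes (1.63) dashed; H2-Q7 lies at 7.23 and H2-K1 at -0.15.

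H2-K1 encodes the classical H2-K heavy chain. Its level was 14.90, 13.57 and 11.39 in replicates 1, 2 and 3 labelled Zfp521-CKO, against 11.93, 14.55 and 13.83 in Zfp521fl/fl replicates 1, 2 and 3. The groups covered the same range, and the shallowest library, replicate 3 labelled Zfp521-CKO, was the lowest of all 6. Means were 13.28 ± 1.77 (Zfp521-CKO) and 13.43 ± 1.35 (Zfp521fl/fl; SD, n = 3 each), a difference of -0.15 that turned positive under 8 of 17 alternatives.

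H2-D1 encodes the other classical chain of C57BL/6 mice. It was at 15.36, 14.05 and 14.67 in the Zfp521-CKO-labelled libraries, against 13.50, 9.01 and 12.89 in the controls. Every library labelled Zfp521-CKO lay above every control, although the controls were widely spread: replicate 2 stood far below the other two with 272 reads. Means were 14.69 ± 0.66 (Zfp521-CKO) and 11.80 ± 2.43 (Zfp521fl/fl; SD, n = 3 each), and the difference of 2.89 log2 units was 1.50 without that control.

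The balance of these classical chains was uneven within both groups. H2-D1 had 1.37, 1.39 and 9.78 reads per read of H2-K1 in the Zfp521-CKO-labelled libraries, against 2.97, 0.0216 and 0.522 in the controls. Replicates 1 and 2 labelled Zfp521-CKO were close to each other, and no pair of controls was. Of the distinct 50-base words in H2-K1's coding transcripts, 6.87% also occur in another gene, and none of its 100-base words do (GENCODE M21 transcripts). For H2-D1 the shares are 13.9% and 4.09%.

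B2m encodes the light chain that every class I heavy chain needs at the surface. Its level was 16.45, 15.29 and 15.15 in the Zfp521-CKO-labelled libraries, against 13.77, 15.16 and 13.97 in the controls. Only Zfp521fl/fl replicate 2 reached the other group, and it exceeded the lowest of that group by a hair. Means were 15.63 ± 0.71 (Zfp521-CKO) and 14.30 ± 0.76 (Zfp521fl/fl; SD, n = 3 each), and the difference of 1.33 lay below the median of all genes. As a rate, B2m had 9955, 4231 and 2399 reads per 1000000 in the Zfp521-CKO-labelled libraries, against 1238, 2649 and 1090 in the controls.

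B2m shares no 50-base word with another gene in the GENCODE M21 transcripts. Shorter words and copies outside these transcripts were not examined. Its promoter, on chr2:122147437-122147736 (GRCm38.p6, plus strand), is shown as that of the member outside the MHC. It held the CCAAT letters on the minus strand (capitals, ATTGG) and neither the IRF nor the NF-kB motif as spelled here. It does hold gaaactgaaa, in which GAA and GAAA stand further apart than in the IRF motif, and which was therefore not counted. It also holds gggaaagtccc. Read on the opposite strand, its GGG and TTCCC stand further apart than in the NF-kB motif, so it was not counted either. The search thus does not show that B2m lacks an IRF site or an NF-kB site.
B2m: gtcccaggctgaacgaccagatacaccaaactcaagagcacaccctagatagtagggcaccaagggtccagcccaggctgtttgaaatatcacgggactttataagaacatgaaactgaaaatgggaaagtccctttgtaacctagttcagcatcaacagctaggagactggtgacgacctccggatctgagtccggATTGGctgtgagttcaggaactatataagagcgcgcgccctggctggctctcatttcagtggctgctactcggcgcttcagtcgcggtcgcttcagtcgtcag

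H2-Q7 and H2-Q6 are neighbours in the Q region and encode Qa-2 antigens, class Ib molecules that can be anchored in the membrane by a lipid tail. H2-Q7 was at 12.16, 11.61 and 11.55 in the Zfp521-CKO-labelled libraries, against 4.94, 4.18 and 4.51 in the controls. No other member separated the groups so far with so little spread inside them. Means were 11.78 ± 0.34 (Zfp521-CKO) and 4.54 ± 0.38 (Zfp521fl/fl; SD, n = 3 each), a difference of 7.23 log2 units, and 98.5% of genes tested had a smaller one.

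In reads, H2-Q7 had 28554, 10052 and 618 in the Zfp521-CKO-labelled libraries, against 28, 9 and 11 in the controls. Per 1000000 reads this was 512 (95% exact Poisson interval 506 to 518), 330 (324 to 337) and 198 (183 to 214) in the Zfp521-CKO-labelled libraries. In the controls it was 2.64 (1.76 to 3.82), 1.23 (0.563 to 2.34) and 1.48 (0.741 to 2.66). The intervals cover counting error only, since PCR copies are not independent molecules. Leaving out each library in turn gave differences from 7.04 to 7.43.

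H2-Q6 separated the libraries differently. Its level was 12.06, 11.42 and 5.48 in the Zfp521-CKO-labelled libraries, against 3.54, 3.84 and 6.53 in the controls. Replicates 1 and 2 labelled Zfp521-CKO stood far above every control, while replicate 3 lay inside the control range with 9 reads. Means were 9.65 ± 3.63 (Zfp521-CKO) and 4.63 ± 1.65 (Zfp521fl/fl; SD, n = 3 each), and the difference of 5.02 became 7.11 without replicate 3 labelled Zfp521-CKO.

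H2-Q7 had 1.08 and 1.14 reads per read of H2-Q6 in replicates 1 and 2 labelled Zfp521-CKO, but 68.7 in replicate 3. In the controls the ratio was 2.80, 1.29 and 0.239, each from at most 46 reads of either gene. Both genes are close copies: 34.9% of the distinct 50-base words of H2-Q7 and 35.0% of those of H2-Q6 occur in another gene, as do 17.2% of the 100-base words of H2-Q7. H2-Q7 shares 17.0% of its 50-base words with H2-Q6 and 17.4% with H2-Q5. How reads that match several genes were counted is not stated, nor is the read length, so a value of either gene may hold reads of the other.

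The promoters of these neighbours align over 260 bases with 6 mismatches (97.7% identity, gaps not counted). They are shown whole because the genes went together in replicates 1 and 2 and apart in replicate 3 labelled Zfp521-CKO. Capitals mark matches of any of the 4 motifs, and TGACGT stands in H2-Q7 only. H2-Q6 has a c directly after the NF-kB motif that H2-Q7 lacks.
H2-Q7, chr17:35438905-35439204, plus strand: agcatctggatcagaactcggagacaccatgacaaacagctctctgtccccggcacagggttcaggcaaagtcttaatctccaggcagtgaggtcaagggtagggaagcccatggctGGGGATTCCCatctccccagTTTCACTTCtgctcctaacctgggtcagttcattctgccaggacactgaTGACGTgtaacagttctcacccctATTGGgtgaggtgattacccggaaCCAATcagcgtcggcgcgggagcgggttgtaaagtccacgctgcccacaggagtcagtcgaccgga
H2-Q6, chr17:35424600-35424899, plus strand: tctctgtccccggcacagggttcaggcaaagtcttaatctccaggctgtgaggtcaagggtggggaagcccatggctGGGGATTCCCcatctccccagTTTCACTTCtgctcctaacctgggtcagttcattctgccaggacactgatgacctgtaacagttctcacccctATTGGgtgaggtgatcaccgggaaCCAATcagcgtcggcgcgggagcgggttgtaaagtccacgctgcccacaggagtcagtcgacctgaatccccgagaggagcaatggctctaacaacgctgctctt

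H2-Q4, another class Ib gene of the Q region, showed no order by group. It was at 8.31, 7.90 and 3.96 in the Zfp521-CKO-labelled libraries, against 3.40, 9.39 and 0 in the controls. The highest of all 6 was Zfp521fl/fl replicate 2, with 354 reads, while replicate 3 labelled Zfp521-CKO had 3 reads and Zfp521fl/fl replicate 3 had none (at most 0.405 reads per 1000000 at the 3 reads that a count of 0 allows). The difference of 2.46 log2 units lay within the SD of the controls (4.76, n = 3), and was 0.32 without Zfp521fl/fl replicate 3 and 5.02 without Zfp521fl/fl replicate 2.

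H2-T23 encodes Qa-1, which presents leader peptides of other class I chains to the NKG2A receptor of natural killer cells. It was at 12.58, 11.83 and 12.55 in the Zfp521-CKO-labelled libraries, against 10.64, 4.97 and 7.09 in the controls. The groups did not overlap, and the controls were spread over a far wider range than the Zfp521-CKO-labelled libraries. Means were 12.32 ± 0.42 (Zfp521-CKO) and 7.57 ± 2.87 (Zfp521fl/fl; SD, n = 3 each), a difference of 4.75 that was 3.45 to 6.29 when each library was left out in turn.

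**Figure D3:**
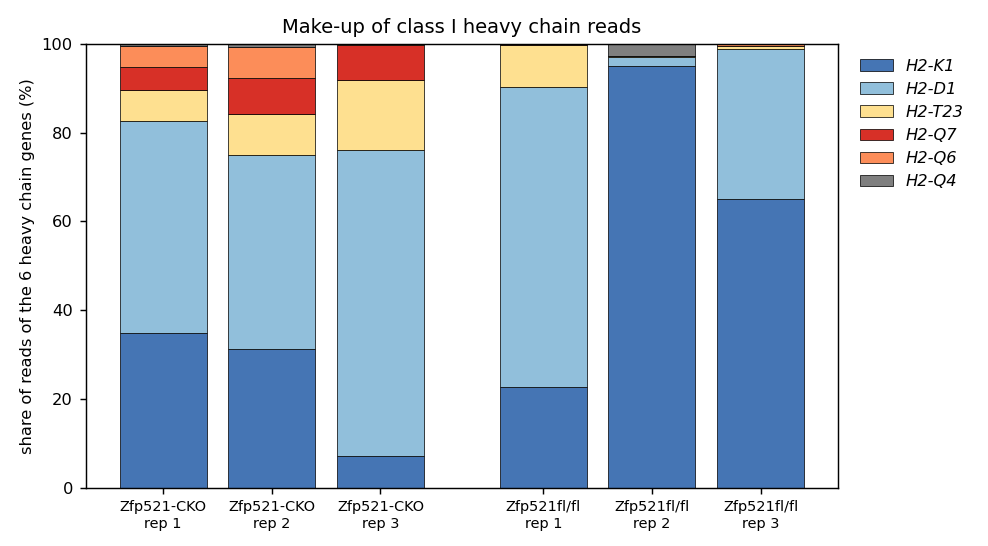
Share (%) of each of 6 heavy chain genes among their summed reads in each library, not corrected for gene length. Class Ib genes (yellow, red, orange and grey) take 17.4 to 25.1% in the Zfp521-CKO-labelled libraries and 1.11 to 9.65% in the controls.

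Summed over the 6 heavy chain genes, the rate per 1000000 reads was 9798, 4090 and 2498 in the Zfp521-CKO-labelled libraries, against 1519, 1816 and 1524 in the controls. The sum was thus higher in all 3 libraries labelled Zfp521-CKO, and their order followed depth. Classical chains made up 82.6%, 74.9% and 76.1% of these reads in the Zfp521-CKO-labelled libraries, against 90.3%, 97.1% and 98.9% in the controls. H2-Q7 alone took 5.22%, 8.07% and 7.94% with the Zfp521-CKO label, against 0.174%, 0.0678% and 0.0974% in the controls. These shares are within a library and do not depend on the scaling between libraries.

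The transporter genes were not measured evenly enough to order the groups. Tap1 was at 9.14, 9.73 and 0 in the Zfp521-CKO-labelled libraries, against 7.82, 0 and 10.38 in the controls. Each group thus had 1 library without a read, and the other libraries of the groups overlapped. The difference of 0.22 beside SDs of 5.46 (Zfp521-CKO) and 5.41 (Zfp521fl/fl; n = 3 each) was -1.20 without replicate 1 labelled Zfp521-CKO, -1.50 without replicate 2 of that label and -2.81 without Zfp521fl/fl replicate 2.

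Tap2, the partner of Tap1 in the transporter, was at 9.01, 10.41 and 0 in the Zfp521-CKO-labelled libraries, against 0, 3.63 and 6.40 in the controls. Replicates 1 and 2 labelled Zfp521-CKO were above every control, and replicate 3 had no read, which allows up to 0.962 reads per 1000000. The controls held 0, 6 and 42 reads. Means were 6.47 ± 5.65 (Zfp521-CKO) and 3.34 ± 3.21 (Zfp521fl/fl; SD, n = 3 each), and the difference of 3.13 was 1.16 without replicate 2 and 6.37 without replicate 3 labelled Zfp521-CKO.

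Tapbp encodes tapasin, the bridge between the transporter and the empty class I molecule. It was at 10.95, 11.14 and 6.21 in the Zfp521-CKO-labelled libraries, against 9.64, 2.74 and 7.37 in the controls. Replicates 1 and 2 labelled Zfp521-CKO again lay above every control, and replicate 3, with 15 reads, lay between them. The difference of 2.85 became 0.93 to 4.46 when each library was left out in turn.

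Counted by library, 8, 7 and 3 of the 10 members lay above every control in replicates 1, 2 and 3 labelled Zfp521-CKO. The shares over all genes tested were 49.6%, 40.2% and 17.0% for the same libraries. Over the 3140 genes with reads in all 6 libraries they were 25.1%, 22.7% and 29%. That set holds 7 of the 10 members, among them the 3 of replicate 3. With so few members the counts are a description only. H2-D1, H2-Q7 and H2-T23 were the 3 in replicate 3, where H2-K1 lay below every control and Tap1 and Tap2 had no reads. The neutrophil marker share ran the other way across these libraries, and the part of either depth or cell make-up in the members' levels was not tested. Monocyte markers (12 genes) took 0.111 to 0.864% of reads in the Zfp521-CKO-labelled libraries and 0.350 to 0.894% in the controls. Of the 12, 9 had a lower mean in the Zfp521-CKO-labelled libraries, while 73.6% of all genes tested had a higher one. As deposited, 3 of them (Ccr2, Irf8 and Ms4a6c) were lower without overlap, against 2.05% of all genes. Ccr2 is among the 70 genes with values that were not whole reads, so its separation rests on the deposited values alone. The monocyte shares include a fitted read count of Ccr2, while the read totals leave it out. Irf8 and Ms4a6c were also lower without overlap with thinned reads. The median difference of the 12 was -3.08. Of B cell markers, Cd79a, Cd79b and Vpreb1 had reads in replicate 1 labelled Zfp521-CKO alone, where they took 0.0137% and Cd79b had 7631 reads. Of T and NK cell markers, Cd3d had reads in Zfp521fl/fl replicate 3 alone (927 reads), and Lck and Nkg7 together with it took 0.000353 to 0.0337% in the Zfp521-CKO-labelled libraries and 0.000123 to 0.098% in the controls. Dendritic (7 genes), erythroid (6) and endothelial (7) markers took 0.0118 to 0.0761%, 0.00844 to 0.0924% and 0.0344 to 0.0408% in the Zfp521-CKO-labelled libraries, against 0.00207 to 0.0392%, 0.0267 to 0.187% and 4.1e-05 to 0.000245% in the controls. Means were higher in the Zfp521-CKO-labelled libraries for 6 of 7 dendritic, 4 of 6 erythroid and 7 of 7 endothelial markers. The share over all genes tested was 73.6%. Flt3 (dendritic), Esam and Icam2 (both endothelial) were higher without overlap, against 7.17% of all genes. Esam had 2 reads in replicate 3 labelled Zfp521-CKO, against 6 in Zfp521fl/fl replicate 1. The marker genes named in this paragraph were chosen after their values were seen.

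The rest of the pathway was read from lists of related genes, none with a member past the threshold. The counts in each list stand beside 73.6% of all genes tested with a higher mean in the Zfp521-CKO-labelled libraries, 7.17% higher without overlap and 2.05% lower without overlap. Among 11 other class I genes in the table, 10 passed the filter, of which 7 had a higher and 3 a lower mean in the Zfp521-CKO-labelled libraries, and 5 of the 11 had no reads in any control. Their median difference was 2.59, or 1.50 with controls without reads set to 3 reads. Groups did not overlap for H2-Q5, which had 4202, 117 and 8 reads in the Zfp521-CKO-labelled libraries, against 5, 0 and 0 in the controls, and for H2-T24, with 539, 67 and 52 reads in the Zfp521-CKO-labelled libraries, against none in the controls. All 5 class I-like genes in the table (Cd1d1, Cd1d2, Mr1, Fcgrt and Ulbp1) had reads in replicates 1 or 2 labelled Zfp521-CKO and in no other library.

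**Figure D4:**
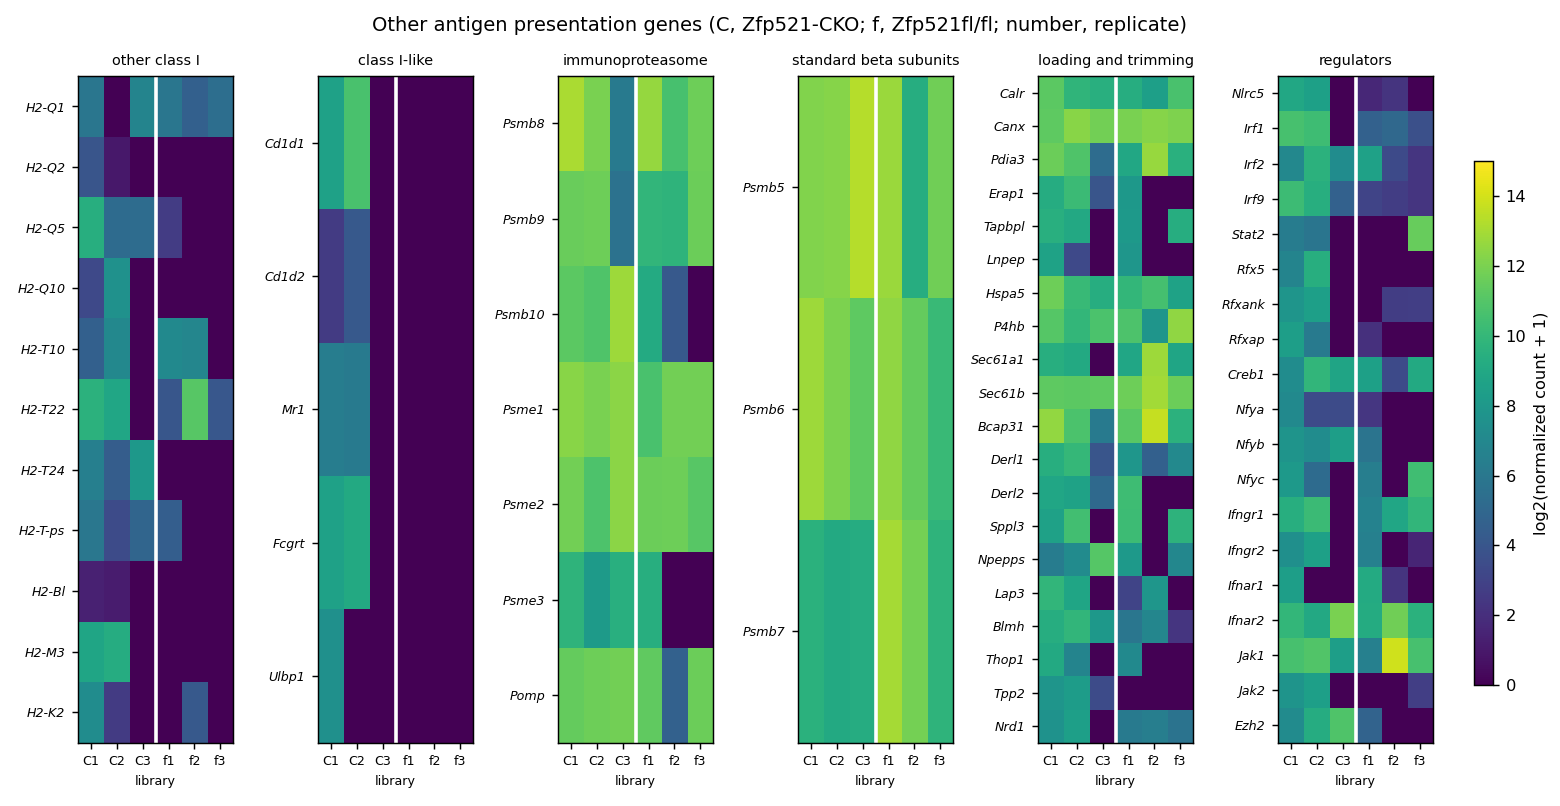
Level, log2(normalized count + 1), of other antigen presentation genes in each library (columns C1 to C3, labelled Zfp521-CKO replicates 1 to 3; f1 to f3, Zfp521fl/fl). Dark cells are 0; class I-like genes are at 0 in C3 and in every control, while Psme1, Psme2 and Canx are above 9 in all 6 libraries.

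Of 7 immunoproteasome genes, which encode the subunits and activator that trim proteins for class I, 5 had a higher and 2 a lower mean, with a median of 0.78. Psmb8 was at 13.08, 12.01 and 6.11 in the Zfp521-CKO-labelled libraries, against 12.61, 10.65 and 11.67 in the controls. Psmb9, the neighbour of Tap1, was at 11.55, 11.71 and 5.63 with the Zfp521-CKO label, against 9.86, 9.76 and 11.65 in the controls. Both were low in replicate 3 labelled Zfp521-CKO, the library without Tap1 and Tap2 reads. Psmb10, their partner subunit, went the other way with 12.82 in that library and 11.20 and 10.87 in replicates 1 and 2, against 9.19, 4.18 and 0 in the controls, without overlap. Psme1, of the proteasome activator PA28, averaged 12.22 ± 0.22 in the Zfp521-CKO-labelled libraries and 11.44 ± 0.63 in the controls (SD, n = 3 each), also without overlap. Psme2, of the same activator, averaged 11.66 ± 0.81 in the Zfp521-CKO-labelled libraries and 11.47 ± 0.32 in the controls. Of the 3 standard subunits that these replace, Psmb7 was lower without overlap, at 9.33 ± 0.23 in the Zfp521-CKO-labelled libraries and 11.55 ± 1.66 in the controls, and its groups overlapped with thinned reads. Groups of Psmb5 and Psmb6 overlapped.

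Of 20 loading and trimming genes, 13 had a higher and 7 a lower mean. Their median of 0.66 lay below that of all genes tested (1.63), as did 13 of the 20, and 9 of the 20 had reads in all 6 libraries. Calreticulin (Calr) averaged 10.17 ± 0.94 in the Zfp521-CKO-labelled libraries and 9.50 ± 1.14 in the controls, and calnexin (Canx) 11.79 ± 0.53 in the Zfp521-CKO-labelled libraries and 12.13 ± 0.15 in the controls (SD, n = 3 each). Pdia3, which encodes ERp57, was at 11.63, 10.85 and 5.32 with the Zfp521-CKO label, against 8.98, 12.67 and 9.53 in the controls. Erap1, the peptidase that trims peptides in the endoplasmic reticulum, was at 9.31, 10.22 and 3.96 with that label, against 8.02, 0 and 0 in the controls. Tapbpl, a tapasin relative that edits peptides, was at 9.45, 9.06 and 0 with that label, against 8.09, 0 and 9.35 in the controls. Groups did not overlap for the cytosolic peptidases Tpp2 (1397, 988 and 2 reads in the Zfp521-CKO-labelled libraries, against none in the controls) and Blmh (9.08 ± 0.96 in the Zfp521-CKO-labelled libraries, against 5.03 ± 2.40 in the controls), both higher. The translocon subunit Sec61b was lower without overlap, at 11.26 ± 0.04 in the Zfp521-CKO-labelled libraries and 12.09 ± 0.74 in the controls, but its groups overlapped with thinned reads.

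Among 20 regulators of class I transcription and interferon signalling, 15 (against 73.6% of all genes) had a higher and 5 a lower mean, with a median of 2.92, or 2.75 with controls without reads at 3 reads. Nlrc5, the class I transactivator, had 3110, 1191 and 0 reads in the Zfp521-CKO-labelled libraries, against 2, 2 and 0 in the controls. Rfx5, which recruits it to the promoter, had 679, 2182 and 0 reads with the Zfp521-CKO label, against none in the controls. The interferon-induced factor Irf1 was at 10.63, 10.36 and 0 with that label, against 4.67, 5.05 and 3.69 in the controls. All 3 were high in replicates 1 and 2 labelled Zfp521-CKO and without reads in replicate 3, in which H2-Q7, H2-T23 and H2-D1 were above every control. Of the 20 regulators, 4 were higher in the Zfp521-CKO-labelled libraries without overlap, against 7.17% of all genes. Ezh2, a repressive histone methyltransferase, was at 7.23, 9.27 and 10.85 with that label, against 4.78, 0 and 0 in the controls. Irf9, a factor of type I interferon signalling, was at 10.28, 9.38 and 4.66 with that label, against 3.08, 2.74 and 2.31 in the controls. Its 4.66 in replicate 3 stands for 5 reads, against 7, 3 and 2 reads in the controls. Of the NF-Y subunits, Nfyb was at 7.79, 7.27 and 8.42 with that label, against 5.78, 0 and 0 in the controls. Nfya was at 7.12, 3.41 and 3.42 with that label, against 2.39, 0 and 0 in the controls. Its 3.42 in replicate 3 stands for 2 reads, against 4 reads in Zfp521fl/fl replicate 1. The separation of Irf9 and Nfya thus rests on few reads in replicate 3 labelled Zfp521-CKO. Nfyc, given as the remaining subunit, was at 8.13, 5.26 and 0 with that label, against 6.41, 0 and 10.38 in the controls. Its groups overlapped, and its mean was lower with that label (difference -1.13).

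Calls of members under other settings were few. With weights per library, which gave replicate 3 labelled Zfp521-CKO the lowest weight (0.239), limma called H2-Q7 alone of the 10 (adjusted p = 0.0468) among 9.93% of genes called higher. Without that library it again called H2-Q7 alone (adjusted p = 0.0269), against 15.2% of genes called higher. Under quantile normalization it called B2m and H2-D1 (adjusted p = 1e-06 and 0.00122), against 0.0304% of genes called higher. H2-Q7 was not called there, and the adjusted p of these 3 members was 0.613 with the values as deposited; over all alternatives that of H2-Q7 ran from 0.0269 to 0.824.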

How the data were processed

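Values are log2(normalized count + 1) as the authors deposited them, although the table is named FPKM; 99.7% of the 61139 values above 0 were whole reads (tolerance 0.001 read) once a single factor per library was taken out, and every value of the 10 members was. The 213 other values, in 70 genes, were left as deposited in the main fit, and those genes were left out of read totals. In voom, in the alternative that put values back on whole reads, and in read shares, a fitted whole read count replaced each of them. Bowtie, DESeq2 1.26.0 and mm9 are listed without roles, per the submitters' processing notes; counter, annotation and read length: not given in the sources used here. No column lacked a sample.

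Genes with a mean normalized count of at least 1 over 6 libraries were fitted with limma 3.58.1 (R 4.3.3, trend, genotype only, two-sided, Benjamini-Hochberg over all 16436 genes, threshold 0.05). Members, lists and the rule for named genes (all members, 14 fixed pathway genes and up to 4 per list whose groups do not overlap) were chosen with earlier results of these data known. One named pathway gene is not reported here. Alternatives numbered 17. Promoters come from RefSeq GRCm38.p6 and transcripts from GENCODE M21, used for words of 50 and 100 bases on either strand.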

Additional observations from a re-analysis of the deposited data

How the results depend on the processing

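The count of genes past an adjusted p of 0.05 was 0 with the values as deposited and in 13 of 17 alternatives. It was 17 with quantile normalization (5 with a higher and 12 with a lower mean under the label Zfp521-CKO), 1660 with weights per library, 4 with voom on the recovered reads, and 0 to 2530 when each library was left out in turn, the highest without Zfp521-CKO replicate 3. The cause was not tested. With quantile normalization, p-values took each gene's spread from the trend over all genes. At an unadjusted p under 0.05 the split was 836 higher and 81 lower as deposited and 354 and 197 with quantile normalization, where the median of all genes was 0.22. The number of members with a higher mean was 8 to 10 of 10 and their median difference 1.93 to 4.15 when each library was left out. The sign held in every alternative run for all members but H2-K1 (8 of 17 changed) and Tap1 (3 of 16 changed).

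The replicate numbers did not pair the libraries: deviations of same-numbered libraries from their group means correlated across 3140 genes at r = 0.12, -0.003 and -0.03, and with the replicate block 0 genes were called. Values near 0 are limited by depth, where 3 reads amount to 3.96 (log2) at the lowest depth and 0.57 at the highest.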
